A study of Mus musculus with 4 samples.

Results

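Laminins are secreted heterotrimers of an alpha, a beta and a gamma chain. They polymerise into the sheet of basement membrane that surrounds muscle cells, vessels and epithelia, and the globular end of the alpha chain binds integrins and dystroglycan on the cell surface. Fibroblasts of the heart lie among cardiomyocytes and capillaries that are each enclosed in such a sheet. TEAD1, the transcription factor under study, binds DNA and recruits YAP and TAZ, the coactivators that Hippo signalling restrains.

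The 9 laminin chain genes described here are Lama1, Lama2, Lama3, Lama4 and Lama5 for alpha chains, Lamb1, Lamb2 and Lamb3 for beta chains, and Lamc1 for a gamma chain. They were chosen by name, out of 21631 protein-coding genes on the chromosomes that carry peaks. Every peak whose summit lay in the span of such a gene, or within 50 kb of either end, was counted. The rule found 35 peaks of 21285 in list 1 and 35 of 21218 in list 2.

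TEAD1 binding was profiled in neonatal mouse cardiac fibroblasts by ChIP-seq, the sequencing of immunoprecipitated chromatin. The groups were OE-TEAD1, cells overexpressing TEAD1, and OE-NC, cells with the negative control of that overexpression, each with 1 ChIP library and 1 input library. Input is sonicated chromatin that was not immunoprecipitated. The sources used here give no strain, age in days, vector or antibody, and do not say whether animals were pooled. The deposited data are 2 lists of peaks called against input. Neither is tied to a group by the labels, so the names list 1 and list 2 carry no condition. A difference between them can therefore not be read as an effect of overexpression. With 1 ChIP library per group there is no replicate check and no test, and differences between the lists are given with counting error only.

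The fold of a peak is the authors' ratio of ChIP fragments at its summit to the local background from input, with 1 added to both. The number of fragments and the background were recovered from the deposited fold and p. The 95% intervals of the folds are exact Poisson intervals of the fragment number and leave out the error of the input. Over a whole list the median peak had 19 fragments and a fold of 6.24 in list 1, and 22 fragments and a fold of 6.83 in list 2. Peak lists measure no expression, so the cell type could not be checked by its markers in the usual way. Of 10 fibroblast marker genes 9 had a summit in the same window in each list, all but Tcf21. The counts for 10 markers each were 10 and 8 for cardiomyocytes, 8 and 8 for endothelium and 8 and 7 for leukocytes. Over all protein-coding genes the share with a summit was 58.2% in list 1 and 59.0% in list 2, below the share of each of these marker lists, and no test of a difference between these lists was made.

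Promoter sequence was at hand for 5 of the 9 genes, in 6 windows from 250 bases before to 50 bases after an annotated start (RefSeq, GRCm38.p6). No peak of the laminin windows overlapped any promoter window at hand. The promoters of the other 4 genes, Lama1, Lama3, Lama4 and Lamc1, could not be checked. Of those 5 genes Lamb1 and Lamb3 are shown, because their peaks lie closest to an annotated start of their own gene. The 250 bases before the start of Lamb1 span chr12:31265043-31265292 on the plus strand, and those before the first start of Lamb3 span chr1:193301744-193301993 on the plus strand. The third sequence, chr1:193302064-193302093 on the plus strand, lies between the annotated starts of Lamb3, and capitals mark its match to the TEAD core.
Lamb1: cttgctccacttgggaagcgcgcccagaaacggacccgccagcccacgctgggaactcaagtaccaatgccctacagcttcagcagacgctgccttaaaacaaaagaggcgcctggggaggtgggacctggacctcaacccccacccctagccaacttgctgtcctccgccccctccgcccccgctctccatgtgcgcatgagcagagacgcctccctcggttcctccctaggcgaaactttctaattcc
Lamb3 first start: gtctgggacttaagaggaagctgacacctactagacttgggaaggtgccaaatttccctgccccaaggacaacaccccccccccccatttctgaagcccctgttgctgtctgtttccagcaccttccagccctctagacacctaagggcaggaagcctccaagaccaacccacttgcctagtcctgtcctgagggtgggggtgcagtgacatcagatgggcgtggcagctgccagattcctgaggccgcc
Lamb3 between starts: gaggggaccccaCATTCCcagggagctctc
The TEAD core was searched as GGAATG on both strands (CATTCC on the other) and the AP-1 motif as TGANTCA. The core was in 1 of the 6 laminin windows, against 14.7% of all 32851 promoter windows of that length. Its match lies 167 bases before the second start of Lamb3. The AP-1 letters were in none of the 6 laminin windows, against 7.81% of all windows. A match is a description of letters in these windows, not of binding. The nearest peak edge lay 5.48 kb (list 1) and 5.71 kb (list 2) from the window of Lamb1, and 2.58 kb and 2.49 kb from the stretch shown for the first start of Lamb3.

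Of the 9 laminin genes 8 had a summit in the span or within 50 kb in list 1, and the same 8 had one in list 2. Among all protein-coding genes 58.2% had one in list 1 and 59.0% in list 2, and 52.2% in both. Inside the span itself 6 of the 9 had a summit in each list (Lama2, Lama4, Lama5, Lamb1, Lamb3 and Lamc1), against 20.7% and 20.8% of all genes. A summit of at least 10-fold in the window was found at 6 genes in list 1 (24.4% of all genes) and at 5 in list 2 (28.1%). These background shares do not allow for gene length. Laminin spans run from 10.7 kb at Lamb2 to 635.9 kb at Lama2, so counts per length of window are given as well.

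Counted per 100 kb of window, the laminin genes together had 1.49 summits in each list, against 1.03 and 1.02 over the windows of all protein-coding genes. Without Lamc1 the density was 1.13 in list 1 and 1.17 in list 2. The median of the 9 genes was 0.887 per 100 kb in each list, against 0.773 and 0.783 for the median gene. The median fold of the laminin summits was 6.32 in list 1 and 6.60 in list 2, near the medians of all peaks given above. Their folds ran from 3.62 to 43.0 in list 1 and from 3.49 to 40.1 in list 2, and 25.7% of them in each list reached 10-fold, against 22.9% and 28.1% of all peaks.

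**Figure D1:**
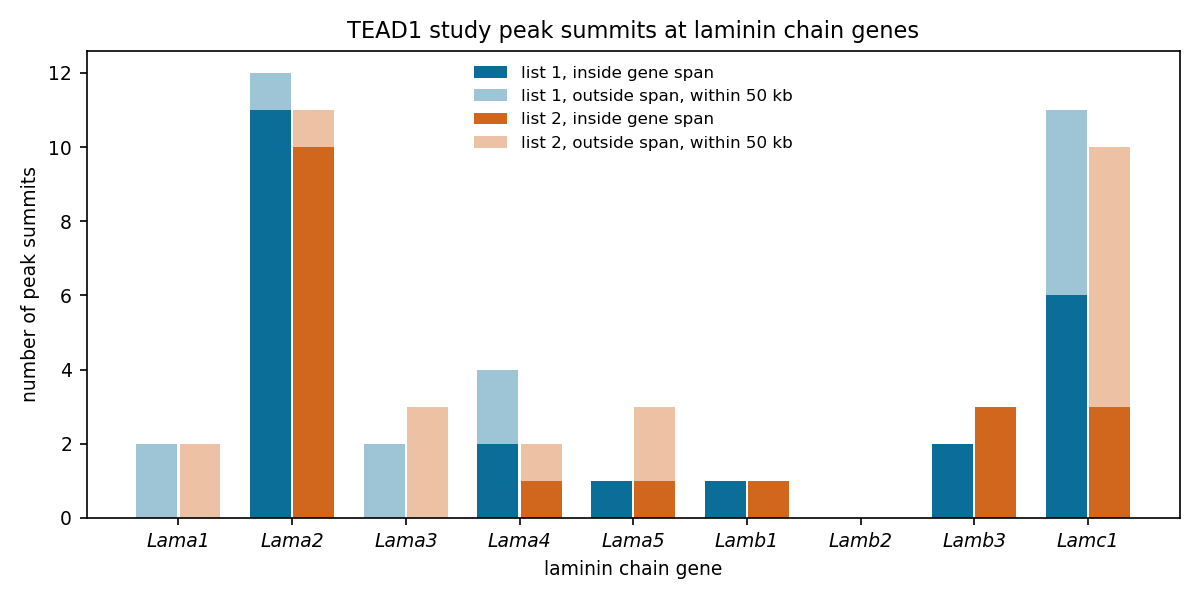
Number of peak summits at each laminin chain gene in list 1 (blue) and list 2 (orange), with summits inside the gene span in full colour and those outside it, within 50 kb, in pale colour. Lama2 (12 and 11) and Lamc1 (11 and 10) hold most summits, and Lamb2 has none.

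Lama2 encodes the alpha chain of the muscle basement membrane, whose loss causes a congenital muscular dystrophy. The gene (NCBI gene 16773) spans 26981285 to 27617191 on chromosome 10 and had 12 summits in list 1 and 11 in list 2, of which 11 and 10 lay inside the span. Per 100 kb of window that is 1.63 and 1.49. Lama2 is the longest of the 9 genes. The strongest site, at 27063498 to 27064403 in list 1, had 77 fragments there and 88 in list 2. Its fold was 21.6 (17.1 to 26.9) in list 1 and 25.8 (20.7 to 31.7) in list 2, and these intervals overlap.

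That strongest Lama2 site ranked 894 in list 1 and 1031 in list 2 by the authors' q. The gene is annotated on the minus strand, and the site lies 553 kb from its annotated start, towards the far end of the gene. A second site at 10-fold or more, with its summit at 27250008 in list 2, had 31 fragments in list 1 and 37 in list 2. Folds there were 9.53 (6.57 to 13.4) and 13.3 (9.44 to 18.1).

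The remaining Lama2 peaks were between 3.86-fold and 9.83-fold in list 1 and between 4.32-fold and 9.42-fold in list 2. The summit nearest to the annotated start, 37.5 kb from it and outside the span, lay in the long non-coding RNA gene Gm30165 and was 7.82-fold and 7.28-fold over input. Of the 14 distinct sites of the Lama2 window 9 were called in both lists. The strongest Lama2 site of list 1 only was 5.11-fold (15 fragments), and that of list 2 only was 7.33-fold (20 fragments).

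Lama4 encodes the alpha chain of capillary and cardiac muscle basement membranes. It spans 38965515 to 39110188 on chromosome 10 (NCBI gene 16775) and had 4 summits in list 1 and 2 in list 2. Its strongest site lay inside the gene, at 38994488 to 38995453 in list 1, 29.4 kb from the lower end of the span. List 1 had 43 fragments there over a background of 1.77, and list 2 had 23 over 2.84. The fold was 15.9 (11.6 to 21.3) in list 1 and 6.25 (4.06 to 9.24) in list 2, so the intervals do not overlap and list 1 is higher.

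A weaker Lama4 peak of list 1, 5.08-fold with 13 fragments, had its summit 0.892 kb from the strongest one and was not called in list 2. Another list 1 peak without a partner lay 35.9 kb outside the span (5.14-fold). The outermost summit lay in the neighbouring gene Ccn6, 47.3 kb from the Lama4 span, with folds of 6.71 and 5.58. It is nearer to Ccn6 than to Lama4 and was counted because the window is fixed at 50 kb.

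Lama5, the alpha chain of many mature epithelial and vascular basement membranes, spans 180176373 to 180225904 on chromosome 2 (NCBI gene 16776). Its strongest peak of list 1 was the lowest among the 8 genes with a peak, while in list 2 its strongest exceeded those of Lama1 and Lama4. The shared site inside the gene, with its summit 16.2 kb from the annotated start in list 1, had 12 fragments in list 1 and 18 in list 2. The folds were 4.03 (2.23 to 6.81) and 4.47 (2.75 to 6.93), with overlapping intervals. List 2 also had 2 peaks outside the span that list 1 lacked, 5.23-fold with 14 fragments and 6.60-fold with 19, both nearer to another gene than to Lama5.

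Lama1 and Lama3 had no summit inside their spans in either list. Lama1, the alpha chain of the early embryo and of a few epithelia, spans 67697127 to 67822645 on chromosome 17 (NCBI gene 16772). Its shared site, at 67682371 to 67683110 in list 1, lay 14.4 kb below the lower end of the span. List 1 had 44 fragments there over a background of 1.90, and list 2 had 28 over 3.65. The fold was 15.5 (11.4 to 20.7) in list 1 and 6.23 (4.21 to 8.91) in list 2, without overlap of the intervals. Between this site and the gene, list 1 had a peak of 6.61-fold (17 fragments) at 7.01 kb from the span, and list 2 a different one of 4.54-fold (12 fragments) at 11.8 kb.

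Lama3 encodes the alpha chain of the laminin that anchors skin epithelium and spans 12333417 to 12583013 on chromosome 18 (NCBI gene 16774). Its strongest site lay 12.4 kb below the lower end of the span, with 18 fragments in list 1 and 28 in list 2. Folds were 6.98 (4.28 to 10.8) and 10.1 (6.84 to 14.5), and the intervals overlap. The other shared site lay inside the neighbouring gene Ttc39c, with folds of 4.38 and 6.85. A peak of list 2 only, 19.4 kb below the span, had a fold of 4.54 (12 fragments) and lay nearer to another gene than to Lama3.

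**Figure D2:**
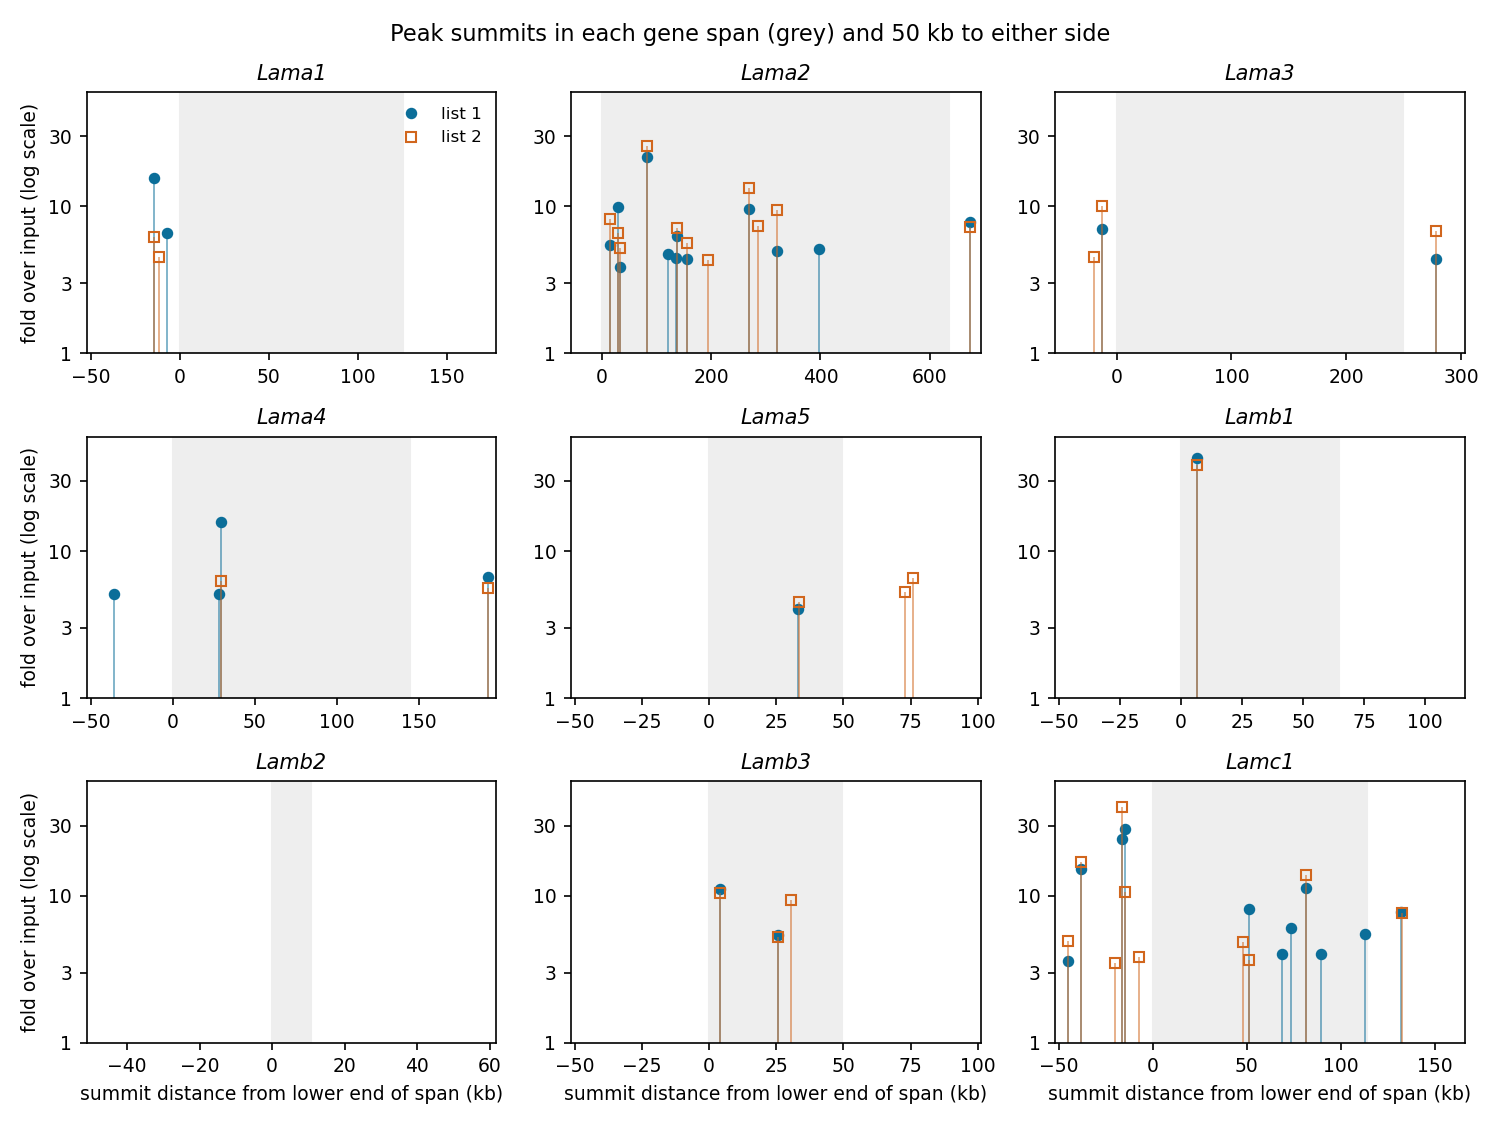
Fold over input (log scale) of each peak summit against its distance in kb from the lower-coordinate end of the gene span, for list 1 (filled blue circles) and list 2 (open orange squares), with the span in grey. Lama1 and Lama3 have summits only beside their spans, Lama2 has them along the gene, and Lamb1 has a single site in each list at 43.0-fold and 38.3-fold.

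Among the beta chains Lamb1, the widely expressed chain of embryonic and many adult basement membranes, had the strongest peak of list 1 among the laminin genes. The gene spans 31265146 to 31329644 on chromosome 12 (NCBI gene 16777). Its only site in the window, at 31270821 to 31271865 in list 1 and 31271050 to 31271859 in list 2, had 116 fragments in list 1 and 115 in list 2. The backgrounds were 1.72 fragments, the lowest background of list 1, and 2.03 in list 2. Folds were 43.0 (35.6 to 51.5) and 38.3 (31.7 to 45.9), and the lists did not differ beyond counting error.

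The Lamb1 summit ranked 215 in list 1, in the top 1.01%, and 479 in list 2, in the top 2.26%. It lay inside the gene, 6.18 kb past the annotated start in list 1 and 6.21 kb past it in list 2, downstream of the promoter shown above. Whether it falls in an exon or an intron was not analysed here. The next summit outside the window of Lamb1 lay 94.6 kb from the span in list 1 and 163 kb away in list 2.

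Lamb3, the beta chain of the skin laminin, spans 193294353 to 193343878 on chromosome 1 (NCBI gene 16780). Its strongest site, at 193297970 to 193299164 in list 1, had 32 fragments there and 35 in list 2. The folds of 11.1 (7.72 to 15.6) and 10.5 (7.39 to 14.5) overlap. This peak was wide, 1195 bp in list 1 and 1264 bp in list 2, where 6.48% and 5.11% of all peaks reached 1000 bp. The summit lies inside the annotated span, 3.69 kb (list 1) and 3.72 kb (list 2) upstream of the first start in the promoter table.

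Another shared Lamb3 site had its summit at base 193319911 in both lists, with 24 and 17 fragments and folds of 5.40 and 5.24. List 2 alone called a peak of 9.42-fold (26 fragments) with its summit at 193324971. It was the strongest list-only peak of the laminin genes in list 2. Just outside the window of Lamb3, 50.6 kb below its span and inside Hsd11b1, lay a summit of 29.8-fold in list 1 and 19.3-fold in list 2, which the 50 kb limit leaves out.

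Lamb2, the beta chain of the neuromuscular junction and the kidney filter, had no peak in its window in either list. It is the shortest of the 9 genes and spans 108479847 to 108490530 on chromosome 9 (NCBI gene 16779). The nearest summits lay 140 kb away in list 1 (9.18-fold) and 137 kb away in list 2 (3.84-fold).

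Lamc1 encodes the gamma chain found in most laminins and had the densest set of summits per length of window. It spans 153218922 to 153332786 on chromosome 1 (NCBI gene 226519), and its window held 11 summits in list 1 and 10 in list 2, or 5.14 and 4.68 per 100 kb. Windows with at least 10 summits were found at 1.40% of all protein-coding genes in list 1 and 1.25% in list 2, and at 2 of the 9 laminin genes in each, Lama2 and Lamc1. In each list 4 of the Lamc1 summits reached 10-fold. In list 2, 7 of the 10 summits lay outside the span. Some summits of this window lie nearer to a neighbouring gene than to Lamc1, among them some of at least 10-fold, given below.

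The strongest Lamc1 sites lie outside the span, 16.6 kb and 14.8 kb below its lower end in list 1. The one at 16.6 kb is nearer to a neighbouring gene than to Lamc1 in both lists. At 153201959 to 153202945 (list 1) there were 112 fragments in list 1 and 114 in list 2, with the summit at base 153202336 in both. The backgrounds differed, 3.63 fragments in list 1 and 1.87 in list 2, the latter the lowest background of list 2. The folds were 24.4 (20.1 to 29.3) and 40.1 (33.2 to 48.1), apart by their intervals, over nearly equal fragment numbers. These intervals leave out the error of the backgrounds, so they cannot show that the folds differ beyond counting error.

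The neighbouring site, 1.78 kb away at 153203721 to 153204617 in list 1, went the other way. It had 85 fragments in list 1 over a background of 2.02 and 53 in list 2 over 4.06. The folds were 28.5 (22.8 to 35.2) and 10.7 (8.04 to 13.9), again without overlap. These adjacent sites had opposite orders of fold between the lists, at the first over nearly equal fragment numbers.

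Inside the Lamc1 span there were 6 summits in list 1 and 3 in list 2, and 2 of these sites were shared. The stronger, at 153300174 to 153300995 in list 1, had 57 fragments in list 1 over a background of 4.15 and 39 in list 2 over 1.87. That 1.87 is again the lowest background of list 2. The folds of 11.3 (8.58 to 14.5) and 14.0 (10.03 to 18.95) overlap. Fragments were more numerous in list 1 there and the fold was higher in list 2.

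The summit closest to an end of any laminin gene was a list 1 peak 1.13 kb inside the upper end of Lamc1, with 14 fragments and a fold of 5.51 (3.18 to 8.99), not called in list 2. The strongest Lamc1 peak of list 1 only had 24 fragments and was 6.08-fold, and that of list 2 only had 13 fragments and was 4.88-fold. A further site of at least 10-fold lay 38.1 kb below the span, at 15.3-fold and 16.9-fold with 54 and 52 fragments. This site lies inside a neighbouring gene and is counted here by the 50 kb rule.

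The share of laminin summits found in both lists was near that of all peaks. Of the 35 summits 25 were shared in each list, or 71.4% (exact Clopper-Pearson interval 53.7 to 85.4), against 70.9% of all list 1 peaks and 71.4% of all list 2 peaks. All 9 laminin summits of at least 10-fold were shared in each list, as were 98.8% and 98.1% of all such peaks. Of those under 5-fold, 6 of 10 in list 1 and 3 of 9 in list 2 were shared, against 42.5% and 40.9% of all such peaks. The 10 list-only summits reached at most 6.61-fold in list 1 and 9.42-fold in list 2.

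At the 25 shared sites summits lay a median of 34 bp apart, from 0 to 178 bp, and 25 bp apart at all 15015 shared sites. The log2 ratio of the folds, list 2 over list 1, had a median of 0.15 and ran from -1.42 to 0.92, against a median of 0.15 over all shared sites. List 2 was higher at 14 of the 25 sites, where 61.7% of all shared sites were higher in list 2. In fragments the median log2 ratio was -0.01 at the laminin sites and 0.21 at all shared sites.

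**Figure D3:**
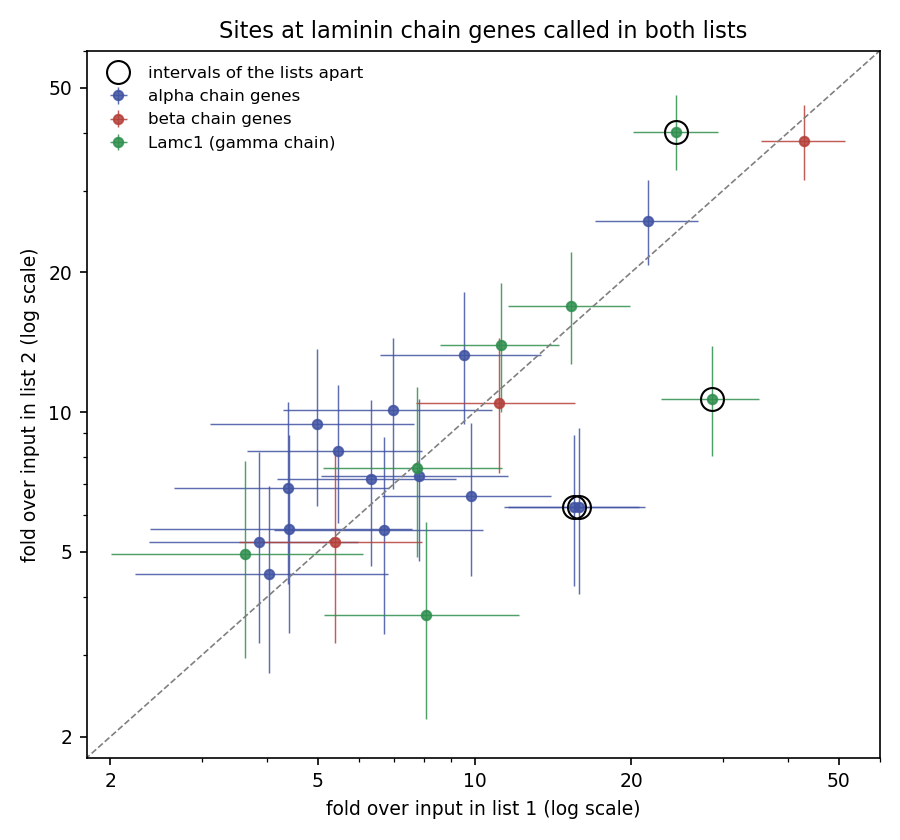
Fold over input in list 2 against list 1 (both axes log scale) at the 25 laminin sites called in both lists, with exact Poisson 95% intervals and the line of equal fold dashed. Circled points are the 4 sites whose intervals do not overlap, at Lama1, Lama4 and Lamc1, and 3 of them lie below the line. The intervals leave out the error of the input.

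The intervals of the lists were apart at 4 of the 25 laminin sites, against 8.79% of all shared sites. These were the strongest shared sites of Lama1 and Lama4 and the neighbouring pair below Lamc1 described above. List 1 was higher at 3 of them and list 2 at 1. At all 4 the list with the lower fold had the higher local background and fewer fragments. The fold is built from both, so this pattern follows in part from picking the sites by their folds. Fragments were 28 against 44 at Lama1 and 23 against 43 at Lama4. At the pair below Lamc1 they were nearly equal at the first site, 112 against 114, and 53 against 85 at the other. The parts of the fragments and of the input in these differences were not tested, and the intervals leave out the error of the input.

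**Figure D4:**
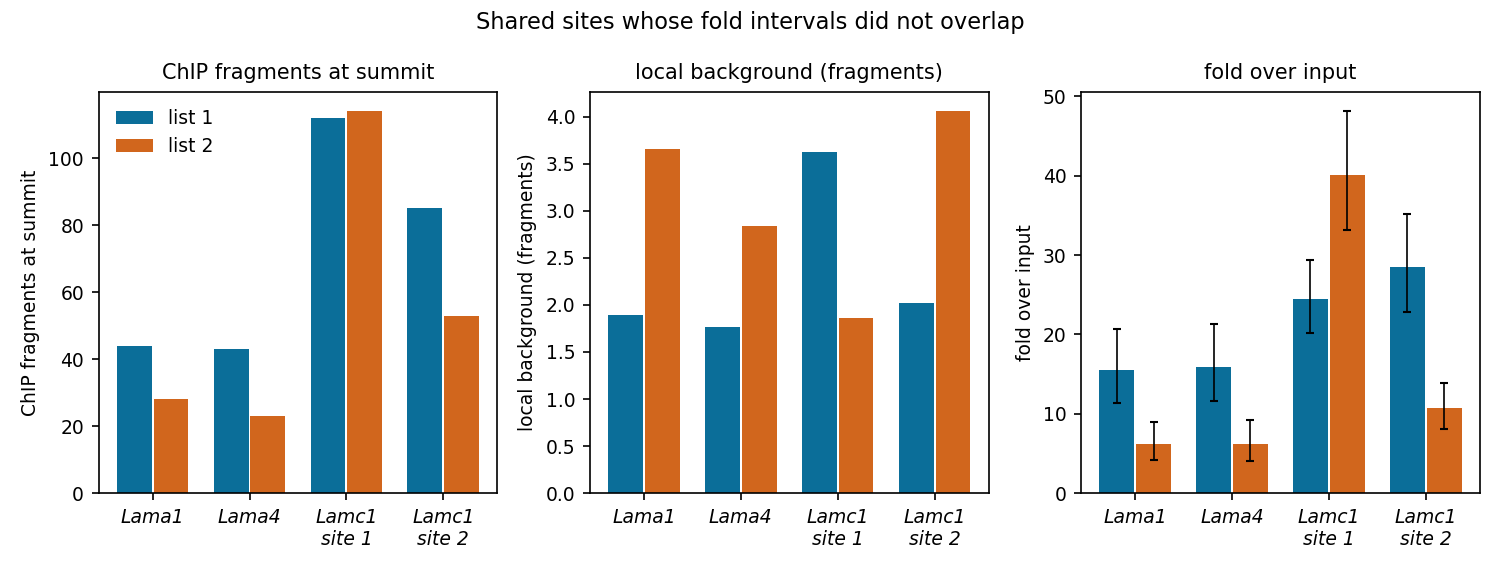
ChIP fragments at the summit (left), local background in fragments (middle) and fold over input with its exact Poisson 95% interval (right) at the 4 shared laminin sites whose intervals are apart, in list 1 (blue) and list 2 (orange). At the first Lamc1 site the fragment numbers are 112 and 114 while the backgrounds are 3.63 and 1.87, the latter the lowest background of list 2.

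Other genes of the laminin system were counted in the same windows. The folds given for them are the highest in the window, inside the gene or beside it. Basement membrane partners of laminin, the collagens and linkers that complete the sheet, had summits at 10 of 10 genes in each list, against 58.2% and 59.0% of all genes. Col18a1, which yields endostatin, reached 22.5-fold and 31.2-fold, Col4a6 reached 9.91-fold and 27.6-fold, and Col4a1 reached 19.5-fold and 27.2-fold. Laminin receptors had 10 of 13 in each list (76.9%). Highest were Bcam, a laminin-binding surface glycoprotein (37.1-fold and 25.4-fold), Itgb1, the shared integrin beta subunit (16.9-fold and 25.8-fold), and the syndecan Sdc2 (15.6-fold and 24.5-fold). The Bcam summits all lay outside its span in both lists. Among the receptors without a summit was the laminin-binding integrin subunit Itga6.

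Among genes that build the laminin-binding sugar of dystroglycan, summits were found at 9 of 13 (69.2%, list 1) and 6 of 13 (46.2%, list 2). The share over all protein-coding genes, 58.2% and 59.0%, lies below the first and above the second. B4gat1, which primes the repeat that laminin binds, reached 19.8-fold and 26.8-fold, with all of its summits outside the span in both lists. The dystrophin complex, which links dystroglycan to actin, had 9 of 11 (81.8%) and 10 of 11 (90.9%), both above the share over all genes. There Utrn, the dystrophin relative utrophin, reached 24.8-fold and 34.3-fold, and the syntrophin Sntb1 10.6-fold and 18.6-fold, while Dmd itself had none.

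Netrins and netrin-G proteins share the amino-terminal domain of laminins, and summits were found at 4 of 6 (66.7%, list 1) and 3 of 6 (50%, list 2), near the 58.2% and 59.0% of all genes. Ntn4, which binds laminin gamma chains, reached 24.9-fold and 28.1-fold, Ntng2 9.55-fold and 24.8-fold, and Ntng1 13.1-fold and 16.4-fold. Windows of neighbouring genes overlap, so a peak can count for more than 1 gene, as between Col4a1 and Col4a2. The differences between these gene lists were not tested.

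**Figure D5:**
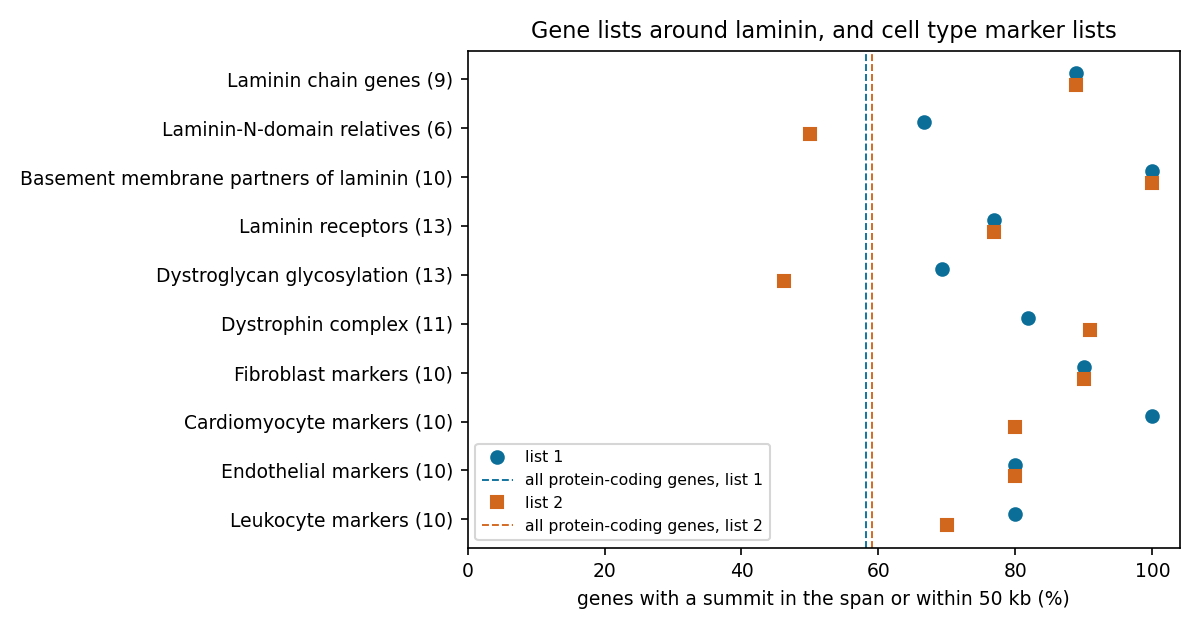
Percentage of genes with a summit in the span or within 50 kb, for the laminin chain genes, the laminin-related lists and the cell type marker lists (number of genes in brackets), in list 1 (blue circles) and list 2 (orange squares). Dashed lines mark all protein-coding genes, 58.2% and 59.0%, and basement membrane partners stand at 10 of 10 in both lists.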

How the data were processed

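ChIP and input libraries of cardiac fibroblasts were sequenced. Reads were trimmed with Trimmomatic 0.33, aligned with Bowtie 1.1.2 and given to MACS2 for peak calling, as the submitters' processing notes state. Version and settings of MACS2 are not stated there. Each of the 2 deposited lists gives the authors' score (−log10 q times 10, cut to a whole number), fold ratio over input, and −log10 p and −log10 q for every peak. The notes name mm39, but peaks run past its ends on chromosomes 2, 3, 7 and X. Summits within 1 kb of a gene end numbered 1129 and 1072 unshifted, and 862 to 931 and 843 to 972 after 10 shifts, so coordinates were read as GRCm38 and are counted from 1.

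Fragment number and background were solved from fold and p, and the fragment number came out whole within 0.02 in 100% of peaks. The recovery was tested on simulated data. Intervals cover counting error only. Python 3.11.15, scipy 1.17.1 and pandas 2.3.3 were used. Gene spans came from the GRCm38.p6 RefSeq table, without exons. An overlap of 1 bp or more made a peak shared. All 9 members were named, with their strongest peaks, those of at least 10-fold or within 5 kb of a gene end, and the strongest list-only peaks. PCR duplicates without molecular identifiers are not independent molecules. From related gene lists the 3 genes of highest fold in either list were named. Some of these genes are not reported here. Members and lists were chosen with earlier results of these data known. Alternatives covered the window, peak thresholds, gene assignment and overlap rule.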

Additional observations from a re-analysis of the deposited data

How the results depend on the processing

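Of 47 recomputed summary values 37 stayed within their limit, a factor of 1.5 for counts and the interval of the value for others. Summits at laminin genes, 35 in each list, fell to 23 in list 1 and 19 in list 2 inside the span only, and to 20 in list 2 within 10 kb. At 10-fold or more there were 9 in each list, and among the 5000 strongest peaks 9 and 7. Counting only summits nearest to their laminin gene left 30 of the 35 in list 1 and 26 in list 2. Genes with a summit in list 2, 8 in the report, numbered 5 at 10-fold or more and 3 among the 5000 strongest. At shared sites the log2 ratio (list 2 over list 1) had a median of 0.15 in folds and of -0.012 in fragments, so its direction depends on the measure. Leaving out Lamc1 was chosen after seeing the data. No paired analysis was possible because each group had 1 library and the lists are tied to no group. A peak of 10 fragments at 4.04-fold has an interval of 2.13 to 7.12, which limits what can be read from weak peaks.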

Other observations

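Some laminin sites lay close together. In the Lama2 window list 1 had summits 0.714 kb apart, of 4.45-fold (12 fragments, list 1 only) and 6.32-fold (25 fragments, shared). Another Lama2 pair, called in both lists, lay 2.60 kb apart, with folds of 9.83 and 3.86 in list 1 and of 6.59 and 5.24 in list 2. Taking both lists together, the longest stretch without a summit between neighbouring laminin sites was 290 kb and covered the whole Lama3 span. Next came 276 kb from inside Lama2 past its annotated start, which begins at a site of list 1 only. The lowest background of a list was shared by 10 laminin summits in list 1 (1.72 fragments) and 13 in list 2 (1.87 fragments), where 37.4% and 38.7% of all peaks stood at it.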
